A study of Mus musculus with 12 samples.

Results

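The myogenic differentiation and fusion genes described here are the transcription factor genes Myod1, Myog, Myf6 and Mef2c, the adhesion gene Cdh15, and the fusion genes Mymk and Mymx. They were chosen by name, from the rows of the count files that carry these symbols, and make up 7 of the 26264 genes listed in each file. The choice was made with earlier results of these data known. The RNA of mouse tibialis anterior, the fast muscle at the front of the lower leg, was sequenced as 12 libraries. In the gel group (4 libraries) 50 µl of an extracellular matrix gel at 6 mg/ml had been given to the left muscle, and in the PBS group (4 libraries) 50 µl of phosphate-buffered saline, the vehicle, had been given to the right muscle. The uninjured group (4 libraries) is labelled only as uninjured muscle. The series title places the work in recovery from acute and disuse injury, but for these libraries the sources used here name no injury, no time after injection, and no strain, sex or age of the mice. In the deposited names, gel and PBS libraries of the same number carry 1 animal number and uninjured libraries carry other numbers, so the side of the body goes with the treatment and the uninjured muscle comes from other animals.

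When muscle is damaged, its stem cells, the satellite cells, become myoblasts, leave the cell cycle and fuse with each other or with existing fibres. The MyoD family of basic helix-loop-helix factors drives these steps: Myod1 acts in committed myoblasts, Myog is switched on as they differentiate, and Myf6 is the member most associated with mature fibres. Mef2c encodes a partner factor that binds A/T-rich sites in muscle genes, Cdh15 encodes M-cadherin, a myoblast adhesion protein, and Mymk and Mymx encode myomaker and myomerger, the muscle membrane proteins that carry out fusion. Myog and the acetylcholine receptor genes are also known to rise in fibres that lose their nerve.

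Library totals ran from 15626086 to 22182483 counts. Genes of adult fast fibres, the tissue check, were abundant in every library: the summed level of 18 such genes was 185600 to 271766 CPM (counts scaled to library size) in gel, 265700 to 298627 CPM in PBS and 302419 to 337281 CPM in uninjured libraries. On the first principal component of all genes gel library 3 lay at 5.39, away from gel libraries 1, 2 and 4 at -91.4 to -67.4. Its summed level of 16 macrophage and monocyte genes was 115 CPM, against 1288 to 2224 CPM in the other gel libraries, 35.5 to 74.9 CPM in PBS and 48.2 to 97.1 CPM in uninjured libraries. Results that rest on the gel group are therefore given with and without it where it changes them. In bulk muscle, a lower level from fewer cells of a type and one from less RNA per cell cannot be told apart.

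Mymk had 16.7, 26.7, 21.6 and 28.2 CPM in gel libraries 1 to 4, against 6.32, 3.70, 1.26 and 9.48 CPM in PBS libraries and 1.36, 0.720, 0.406 and 1.27 CPM in uninjured libraries. Myomaker is required on both partners of a fusion, and its gene is nearly silent in resting adult muscle. Every gel library lay above every PBS library, and the lowest PBS library, number 3, lay below the highest uninjured library. Groups did not overlap in this way for 20.1% of all genes tested between gel and PBS. Over uninjured muscle, Mymk rose by 4.61 ± 0.55 on the log2 scale in gel muscle (SE, edgeR adjusted p = 0.000283) and by 2.44 ± 0.55 in PBS muscle (edgeR adjusted p = 0.0232). Gel muscle was also above PBS muscle, at 2.17 ± 0.46 (edgeR adjusted p = 0.00580), or 4.49-fold, and the gel leg was higher in 4 of 4 animals, by 2.64-fold to 17.2-fold. Without gel library 3 the gel over PBS value was 2.20 (edgeR adjusted p = 0.00561).

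The rise of Mymk in PBS over uninjured muscle rests on few counts, with 6 to 24 in each uninjured library. Its call was lost with limma voom (adjusted p = 0.155), with no filter on low counts (edgeR adjusted p = 0.0535), and without PBS library 1 (edgeR adjusted p = 0.0624) or uninjured library 2 (0.0775), 3 (0.0728) or 4 (0.0606). Both gel comparisons of Mymk stayed past the threshold in all alternatives tried.

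Mymx, whose small product completes the fusion that myomaker begins, was close to the limit of detection. It had 22, 26, 8 and 94 counts in gel libraries 1 to 4, against 10, 0, 10 and 16 counts in PBS libraries and 12, 0, 2 and 4 counts in uninjured libraries. The counts of 0 allow up to 3 counts, or 0.163 CPM in PBS library 2 and 0.180 CPM in uninjured library 2, for counting error only. Gel library 4 held most of the gel counts, gel library 3 lay below PBS libraries 1, 3 and 4 in CPM, and the groups overlapped. Log2 fold changes were 1.68 ± 0.83 for gel over PBS (edgeR adjusted p = 0.141) and 2.54 ± 0.90 for gel over uninjured muscle (edgeR adjusted p = 0.0508). PBS over uninjured muscle was at 0.86 ± 0.96 (edgeR adjusted p = 0.650). The gel over uninjured value passed with DESeq2 (adjusted p = 0.0217), with only these groups in the fit (edgeR adjusted p = 0.0477) and with counts halved and rounded up (edgeR adjusted p = 0.0326). It also passed with same-numbered libraries as a block (edgeR adjusted p = 0.0385), and without gel library 3 (0.0163), PBS library 2 (0.0261) or uninjured library 1 (0.0302). It missed with limma voom (adjusted p = 0.0870), with DESeq2 size factors in edgeR (0.0512), with no filter on low counts (edgeR adjusted p = 0.0683) and without any 1 of the other libraries, with edgeR adjusted p of 0.0550 to 0.193. Leaving out gel library 4 lowered gel over uninjured to 1.81 (edgeR adjusted p = 0.193) and gel over PBS to 0.95 (edgeR adjusted p = 0.473). A stricter filter, at least 1 CPM in 4 libraries, removed Mymx, so it was not tested there.

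**Figure D1:**
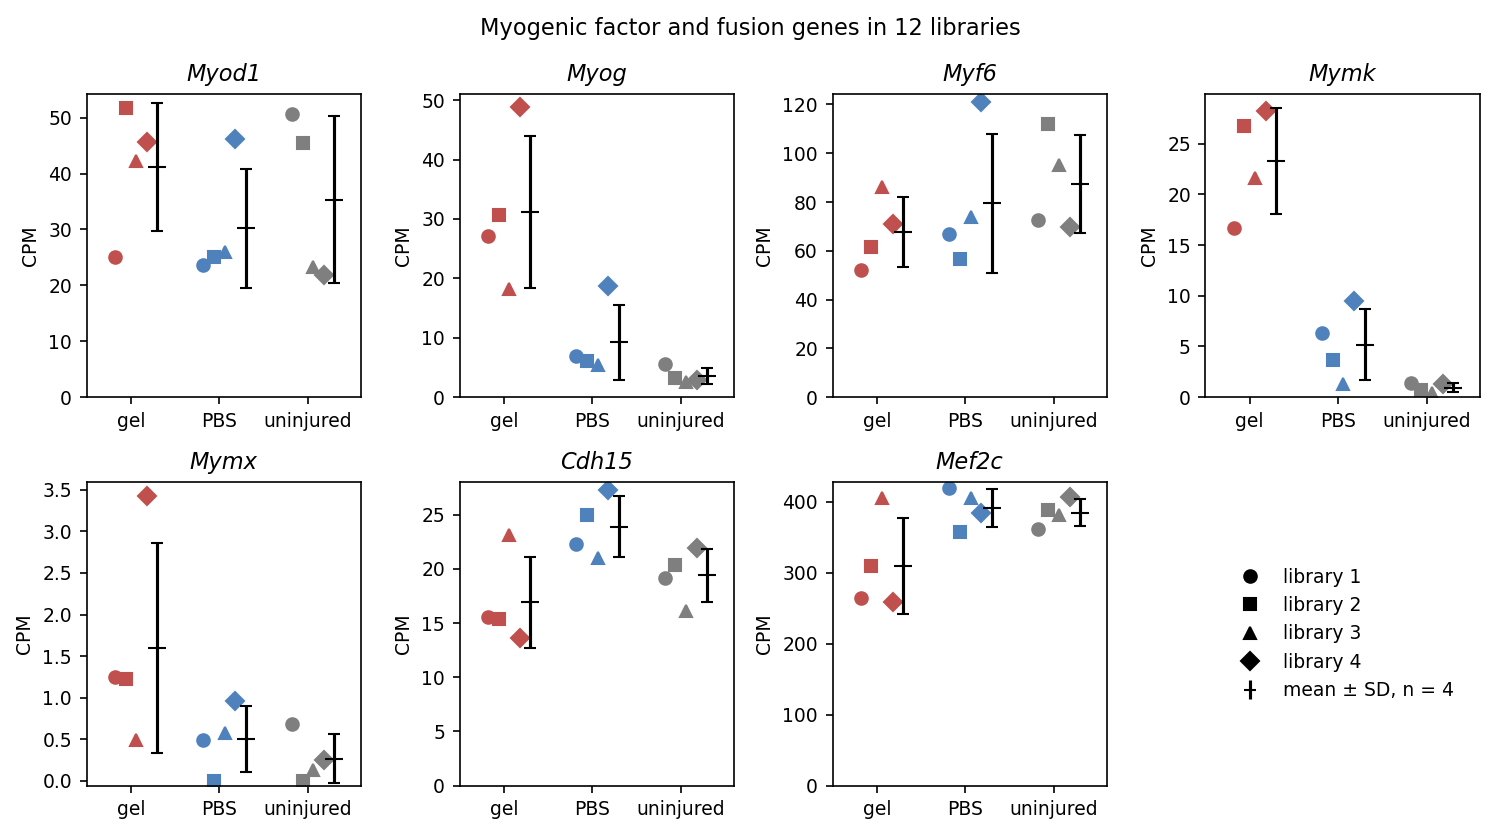
Level of each of the 7 genes in CPM (y axis, linear scale, 1 scale per gene) in gel, PBS and uninjured libraries, with 1 symbol per library number and the mean ± SD of 4 libraries beside them. Mymk does not overlap between gel and PBS libraries, Myog is highest in gel library 4 at 48.8 CPM, and Cdh15 and Mef2c are highest within the gel group in gel library 3.

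Among the factors, Myog was the gene that moved most. It had 27.2, 30.6, 18.2 and 48.8 CPM in gel libraries 1 to 4, against 6.91, 6.09, 5.38 and 18.7 CPM in PBS libraries and 5.57, 3.24, 2.57 and 2.85 CPM in uninjured libraries. The gel libraries lay above all uninjured libraries, while PBS library 4, at 18.7 CPM, lay just above gel library 3. These 2 libraries come from different animals, and within each animal the gel leg was higher, by 2.61-fold to 5.03-fold in 4 of 4 animals. Myog rose by 1.76 ± 0.43 on the log2 scale in gel over PBS muscle (edgeR adjusted p = 0.0117) and by 3.13 ± 0.47 in gel over uninjured muscle (edgeR adjusted p = 0.00104), an 8.73-fold difference. Without gel library 3 the values were 1.95 (edgeR adjusted p = 0.00572) and 3.31 (edgeR adjusted p = 0.000428). The share of genes whose groups did not overlap was 23.0% between gel and uninjured muscle.

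PBS muscle was above uninjured muscle for Myog by 1.37 ± 0.46, which missed the threshold in edgeR (adjusted p = 0.103) and passed in DESeq2 (adjusted p = 0.00811). That value depended on PBS library 4 for its size, since it was 0.77 without that library (edgeR adjusted p = 0.192).

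Because Myog moved among the factors, its start site is shown with matches to broad patterns that include MyoD-family sites and part of the MEF2 sites. It stands beside that of Cdh15, whose level went the other way. The sequences are the 250 bases before the annotated start, 5′ to 3′, from RefSeq on build GRCm38.p6, plus strand, at chr1:134289754-134290003 for Myog and chr8:122848124-122848373 for Cdh15. The counts were made on build mm39, so these positions do not apply to the count files. Capitals mark CANNTG, the E-box read by basic helix-loop-helix factors and its own reverse complement, and CTANNNNTA on either strand. CANNTG is not limited to sites of the MyoD family. CTANNNNTA is wider than the MEF2 motif in its middle, where that motif has A or T in place of N. It is narrower at its ends, because MEF2 sites that start with C on neither strand are not marked.
Myog: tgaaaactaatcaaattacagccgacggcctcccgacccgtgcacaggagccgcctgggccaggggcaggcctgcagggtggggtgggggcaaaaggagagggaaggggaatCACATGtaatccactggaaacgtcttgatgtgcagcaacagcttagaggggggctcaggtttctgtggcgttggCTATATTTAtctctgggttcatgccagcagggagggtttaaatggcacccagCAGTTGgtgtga
Cdh15: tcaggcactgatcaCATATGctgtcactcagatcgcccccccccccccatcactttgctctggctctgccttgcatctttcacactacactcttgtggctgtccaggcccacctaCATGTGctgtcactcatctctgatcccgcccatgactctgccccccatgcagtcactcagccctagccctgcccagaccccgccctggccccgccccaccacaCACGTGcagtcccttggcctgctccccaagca

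The Myog window held 2 matches to CANNTG, at 138 to 133 and at 12 to 7 bases before the start, and 1 match to CTANNNNTA at 64 to 56 bases before it, with no overlap. The Cdh15 window held 3 matches to CANNTG and 0 to CTANNNNTA. The table lists 3 starts for Mef2c, whose level also went down in gel libraries 1, 2 and 4: the first window held 2 matches to CANNTG, the second 0 to either motif, and the third 1 to CANNTG and 1 to CTANNNNTA. That last match, CTAACGATA, has C and G among the bases written N. Of 32851 windows of the same length in the RefSeq table, 66.2% held CANNTG, 19% held CTANNNNTA and 13.0% held both, while 12.2% held 3 or more matches to CANNTG. These matches describe the letters in the windows. Of the 7 genes, 3 had an entry in the table. Myod1, Myf6, Mymk and Mymx had none.

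Myod1 had 25.0, 51.8, 42.2 and 45.7 CPM in gel libraries 1 to 4, against 23.6, 25.0, 26.0 and 46.1 CPM in PBS libraries and 50.7, 45.5, 23.3 and 21.8 CPM in uninjured libraries. The 3 groups overlapped over most of their ranges, and the uninjured libraries fell into a high and a low pair. Its log2 fold changes were 0.45 ± 0.33 for gel over PBS (edgeR adjusted p = 0.323), -0.23 ± 0.33 for PBS over uninjured (edgeR adjusted p = 0.742) and 0.22 ± 0.33 for gel over uninjured muscle (edgeR adjusted p = 0.660).

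Myf6 had 52.3, 61.5, 86.0 and 70.8 CPM in gel libraries, against 67.0, 56.6, 73.8 and 121 CPM in PBS libraries and 72.8, 112, 95.2 and 69.6 CPM in uninjured libraries. The groups overlapped, and 2 of 4 animals had more Myf6 in the gel leg. Gel over PBS was at -0.24 ± 0.23 and gel over uninjured muscle at -0.37 ± 0.23 (edgeR adjusted p = 0.473 and 0.264). PBS over uninjured muscle was at -0.13 ± 0.23 (edgeR adjusted p = 0.794).

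The balance between the factors was measured within each library as the share of Myog in the summed counts of Myf5, Myod1, Myog and Myf6, which does not depend on scaling between libraries. Myf5 is the early member of the family, active in satellite cells and dividing myoblasts. Myog made up 25.5%, 20.8%, 12.2% and 28.8% of these counts in gel libraries 1 to 4, against 6.88%, 6.76%, 5.04% and 9.96% in PBS libraries and 4.24%, 1.99%, 2.10% and 2.94% in uninjured libraries. No groups overlapped. The difference was 14.6 percentage points for gel over PBS, 4.34 for PBS over uninjured and 19 for gel over uninjured muscle. Each had p = 0.0286 in a two-sided exact permutation test of 4 libraries against 4, also after Benjamini-Hochberg adjustment over the 3 comparisons. This is the smallest p the design allows, and since Myog was picked with its rise known, the test is no independent evidence. Over the 4 animals an exact sign-flip permutation test of gel against PBS gave an adjusted p of 0.125, the smallest that 4 pairs allow. Myf5 itself averaged 3.16 ± 1.01 CPM in gel, 2.17 ± 0.593 in PBS and 2.10 ± 0.460 in uninjured muscle (SD, n = 4), with edgeR adjusted p of 0.194 for gel over PBS.

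**Figure D2:**
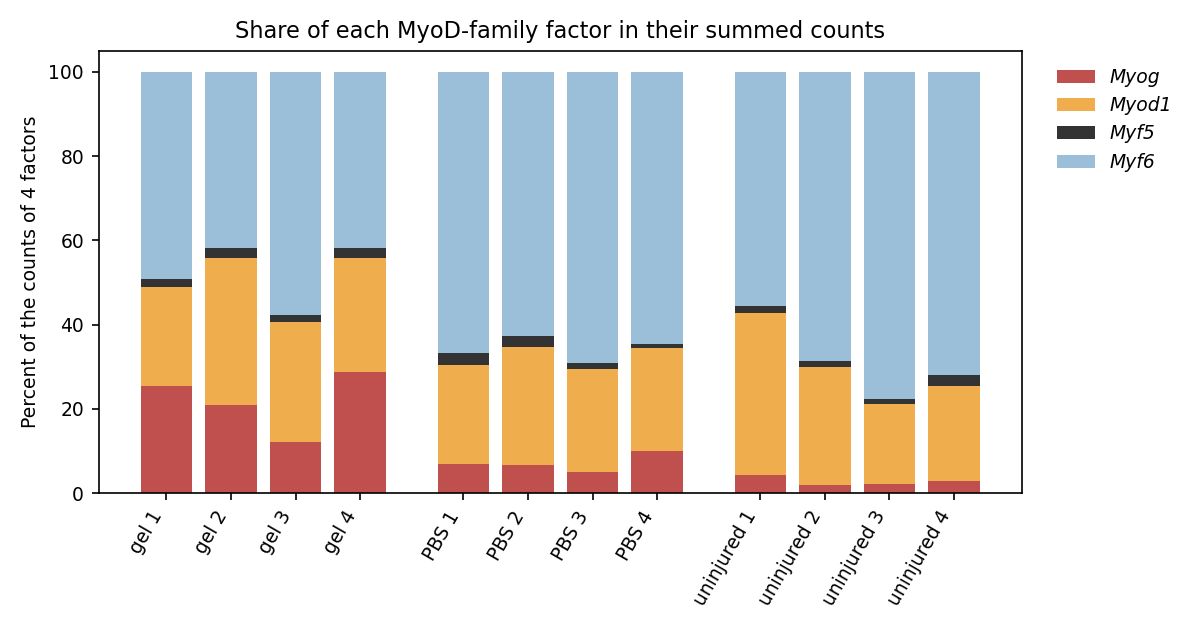
Share of Myog, Myod1, Myf5 and Myf6 (stacked, percent of the summed counts of these 4 genes, y axis) in each gel, PBS and uninjured library (x axis). The Myog share lies between 12.2% and 28.8% in gel libraries, between 5.04% and 9.96% in PBS libraries and at 4.24% or lower in uninjured libraries.

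Cdh15 and Mef2c went the other way, and gel library 3 did not share their decrease. Cdh15 had 15.6, 15.4, 23.1 and 13.6 CPM in gel libraries 1 to 4, against 22.3, 25.0, 21.0 and 27.3 CPM in PBS libraries and 19.2, 20.4, 16.1 and 21.9 CPM in uninjured libraries. Gel libraries 1, 2 and 4 were below every PBS library, and gel library 3 lay among the PBS libraries. Cdh15 fell by 0.50 ± 0.16 on the log2 scale in gel over PBS muscle (edgeR adjusted p = 0.0309). Blocking on the animal ended this call (edgeR adjusted p = 0.0683), as did a fit of only these groups (0.0661). So did leaving out gel library 1 (edgeR adjusted p = 0.0649), 2 (0.0763) or 4 (0.0945), or PBS library 2 (0.0725) or 4 (0.0752). With gel library 3 left out it was -0.68 (edgeR adjusted p = 0.000718). Gel over uninjured muscle was at -0.20 ± 0.16 (edgeR adjusted p = 0.392), and at -0.39 without gel library 3 (edgeR adjusted p = 0.0366). PBS over uninjured muscle was at 0.30 ± 0.16 (edgeR adjusted p = 0.298).

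Mef2c had 265, 309, 406 and 259 CPM in gel libraries 1 to 4, against 419, 357, 406 and 384 CPM in PBS libraries and 362, 388, 382 and 407 CPM in uninjured libraries. Gel libraries 1, 2 and 4 lay below all other libraries, and gel library 3 was level with its PBS leg, at a ratio of 0.999. Gel over PBS was at -0.34 ± 0.14 (edgeR adjusted p = 0.0818) and gel over uninjured muscle at -0.31 ± 0.14 (edgeR adjusted p = 0.114). Both passed without gel library 3, at -0.50 (edgeR adjusted p = 0.00126) and -0.47 (edgeR adjusted p = 0.00213). Gel over PBS also passed with DESeq2 on all libraries (adjusted p = 0.0366). PBS and uninjured muscle were at 391 ± 27.2 and 385 ± 18.6 CPM (SD, n = 4), a log2 fold change of 0.02 ± 0.14 (edgeR adjusted p = 0.945).

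Other measures moved with this split of the gel libraries. In gel libraries 1, 2 and 4 the summed level of the 18 fast-fibre genes was 185600 to 231523 CPM, against 271766 CPM in gel library 3, and their macrophage and monocyte sum was at least 1288 CPM, against 115 CPM. The sum of 10 fibro-adipogenic progenitor genes was 2600 to 3088 CPM in those libraries, 533 CPM in gel library 3, 453 to 1133 CPM in PBS and 531 to 830 CPM in uninjured libraries. The part of these levels in the Cdh15 and Mef2c values was not tested. Mef2c is also known in endothelial, smooth muscle and B cells. The sum of 10 endothelial genes was 277 CPM in gel library 3, 339 to 725 CPM in the other gel libraries, 399 to 678 CPM in PBS and 525 to 606 CPM in uninjured libraries. For 7 B cell genes it was 2.32 CPM in gel library 3, 5.32 to 6.34 CPM in the other gel libraries, 2.71 to 4.2 CPM in PBS and 1.48 to 3.55 CPM in uninjured libraries. The smooth muscle and pericyte list holds Des, the desmin gene, which muscle fibres also express and which made up most of its sum. Its other 9 genes summed to 427 CPM in gel library 3, 387 to 874 CPM in the other gel libraries, 522 to 793 CPM in PBS and 760 to 813 CPM in uninjured libraries. No gene of any of these lists was at 0 in all libraries of a group. In gel library 3 Mymk was above every PBS and uninjured library, while Myog was above every uninjured library, the lowest of the gel group and below PBS library 4. The part of the macrophage and other sums in the Myog and Mymk values was not tested.

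**Figure D3:**
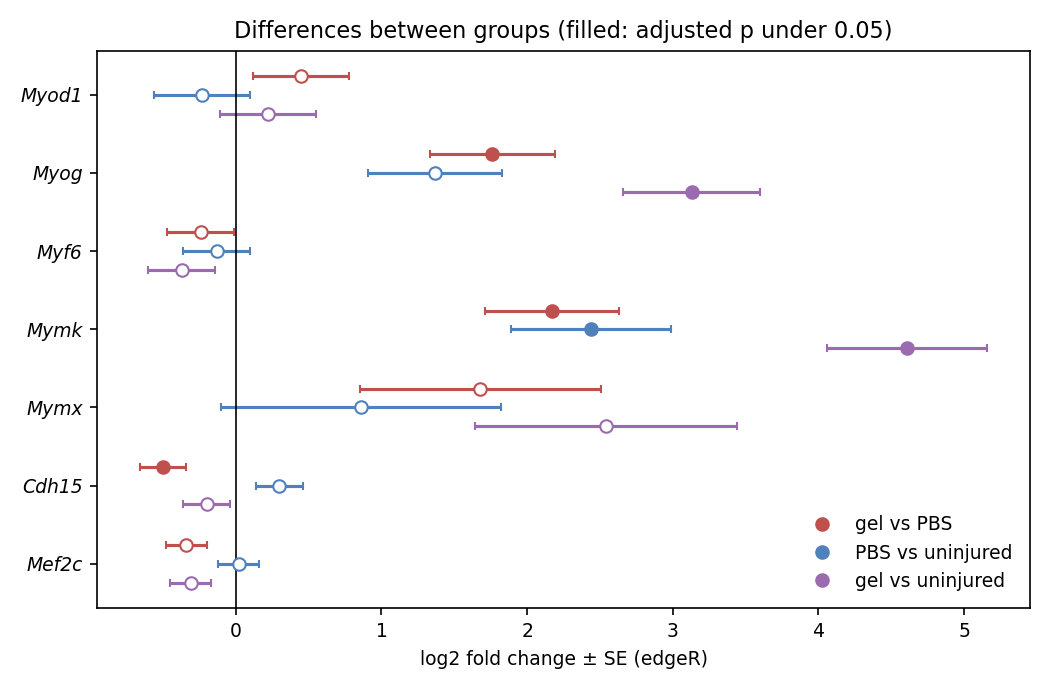
Log2 fold change with its SE (x axis) from edgeR for each gene (y axis) in the gel over PBS, PBS over uninjured and gel over uninjured comparisons, with filled points for adjusted p under 0.05. Mymk is filled in all 3 comparisons, Myog in both gel comparisons and Cdh15 only in gel over PBS, at -0.50.

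In counts over the 7 genes, all of which passed the filter on low counts, 2 rose and 1 fell in gel over PBS muscle, where 16.6% of all genes tested rose, 13.2% fell and 29.8% were called in either direction. In PBS over uninjured muscle 1 of 7 rose and 0 fell, against 2.79% of all genes tested that rose and 3.39% that fell. In gel over uninjured muscle 2 of 7 rose and 0 fell, against 14.5% that rose and 11.1% that fell. Without gel library 3, 3 of the 7 genes rose and 2 fell in gel over uninjured muscle. With 7 genes, nothing particular to the list is read from these counts. The medians were 0.45, 0.30 and 0.22 on the log2 scale in gel over PBS, PBS over uninjured and gel over uninjured muscle, beside 0.04, 0.00 and 0.03 for all genes. The gel over PBS and PBS over uninjured comparisons share the PBS libraries, and both gel comparisons share the gel libraries.

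Levels of different genes were compared per kilobase of merged exons, with lengths from GENCODE M21, an annotation that may differ from the one used for counting. In uninjured muscle the order was Myf6 at 69.2 ± 15.8 CPM per kb, Mef2c at 24.5 ± 1.18, Myod1 at 19 ± 8.01, Cdh15 at 5.97 ± 0.757, Myog at 2.38 ± 0.916, Mymk at 0.621 ± 0.301 and Mymx at 0.260 ± 0.287 (SD, n = 4). Mef2c and Myod1 overlapped there, as did Mymk and Mymx. The merged exons of Mef2c are 15715 bases long, against 1027 to 3251 bases for the other genes, so the place of Mef2c depends on that length. Before division by length, Mef2c was at 385 CPM and Myf6 at 87.4 CPM in uninjured muscle. In gel muscle Myf6 was still highest, at 53.6 ± 11.4 CPM per kb, and Myod1 at 22.1 ± 6.17, Myog at 20.9 ± 8.59, Mef2c at 19.7 ± 4.32 and Mymk at 15.4 ± 3.46 overlapped with each other. Cdh15 followed at 5.21 ± 1.30 and Mymx at 1.56 ± 1.23. Myog and Mymk thus stood below Cdh15 in uninjured muscle and above it in every gel library.

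Myog and Mymk followed each other across the libraries, with Pearson's r = 0.95 on log2 CPM over 12 libraries and 0.68 after the mean of each group was taken out. Myog and Mymx had r = 0.80 and 0.67 in the same terms, and Cdh15 and Mef2c had 0.75 and 0.66. Myog and Mef2c had r = -0.73 and -0.51. Myod1 and Myog had 0.48 over all libraries and 0.65 within groups. These describe libraries that share groups, animals and scaling, and carry no test.

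**Figure D4:**
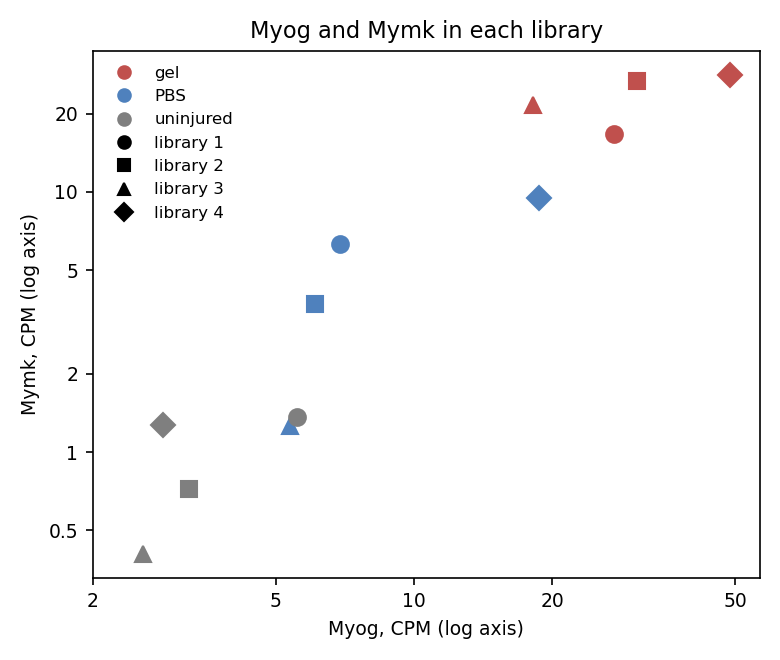
Mymk against Myog in CPM (both axes logarithmic), 1 point for each gel, PBS or uninjured library, with the symbol giving the library number. The lowest values of both genes are in uninjured libraries, and PBS library 3 lies beside uninjured library 1, with Mymk at 1.26 and 1.36 CPM.

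Of 12313 other genes with a mean of at least 1 CPM, those with patterns most like Mymk over the 12 libraries included Trim7, which encodes a ubiquitin ligase (r = 0.97), and Mamstr, which encodes a coactivator of MEF2 factors (r = 0.96). Mamstr had 136, 164, 161 and 173 CPM in gel libraries, against 76.4, 52.0, 60.7 and 91.6 CPM in PBS libraries and 46.7, 29.5, 34.6 and 33.6 CPM in uninjured libraries. The 3 groups did not overlap for Mamstr. Of all genes tested, 20.1% did not overlap between gel and PBS, 20.6% between PBS and uninjured and 23.0% between gel and uninjured muscle. Mamstr rose by 1.17 ± 0.18 on the log2 scale in gel over PBS (edgeR adjusted p = 0.00127), by 0.96 ± 0.18 in PBS over uninjured (edgeR adjusted p = 0.00540) and by 2.13 ± 0.18 in gel over uninjured muscle (edgeR adjusted p = 1.36e-05). Since Mamstr was picked for its likeness to Mymk over these same libraries, its differences between groups are no independent evidence. The genes most like Myog were Lyplal1 (r = 0.97), Armcx6 (0.96) and Pbx2 (0.96), the last a homeodomain factor gene. Those most like Mef2c were Chp1 (0.97), Hipk3 (0.97) and Klhdc2 (0.96), and those most like Cdh15 were Mia2 (0.94), Rprd2 (0.93) and Pomgnt2 (0.92). For Myod1 they were Selenos (0.86), Nudt16 (0.86) and Pbdc1 (0.85), for Myf6 Ost4 (0.89), Dut (0.85) and Tmem267 (0.85), and for Mymx Serpinb8 (0.91), Nsmce3 (0.91) and Serf1 (0.90).

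Of 14 tested genes for other factors that act with the MyoD family, 6 fell and 0 rose in gel over PBS, with a median of -0.31. Beside this and the lists below, 16.6% of all genes tested rose and 13.2% fell in gel over PBS muscle. These shares were 2.79% and 3.39% in PBS over uninjured, and 14.5% and 11.1% in gel over uninjured muscle. Smarcd3, a chromatin remodelling subunit that works with MyoD, was at 44.6 ± 9.74 CPM in gel and 71.4 ± 6.75 CPM in PBS muscle (SD, n = 4) and fell by 0.68 ± 0.14 (edgeR adjusted p = 0.00392). Srf, which encodes serum response factor, fell by 0.68 ± 0.16 (edgeR adjusted p = 0.00704). The Mef2c relatives were at -0.43 ± 0.12 for Mef2a (edgeR adjusted p = 0.0134) and -0.35 ± 0.14 for Mef2d (edgeR adjusted p = 0.0628). In gel over PBS 3 fell and 0 rose when gel library 1 or 4, or PBS library 1 or 2, was left out. The same held with a block for the animal, where Mef2a lost its call (edgeR adjusted p = 0.0683). Mef2d passed without gel library 3, at -0.51 (edgeR adjusted p = 0.000634), with DESeq2 (adjusted p = 0.0238) and with limma voom (adjusted p = 0.0493). In PBS over uninjured muscle 3 rose and 0 fell, among them Mrtfa, a coactivator of Srf, at 1.30 ± 0.16 (edgeR adjusted p = 0.000268) and Six4 at 0.98 ± 0.18 (edgeR adjusted p = 0.00546). In gel over uninjured muscle 2 rose and 1 fell. With gel library 3 left out, 4 rose and 5 fell there, and 5 rose and 0 fell in PBS over uninjured muscle.

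Genes for repressors of the MyoD family did not move as 1 group. Of 21 tested, 2 rose and 1 fell in gel over PBS, 4 rose and 1 fell in PBS over uninjured, and 5 rose and 3 fell in gel over uninjured muscle. In gel over PBS 29.8% of all genes tested were called, and nothing particular to this list is read from its count there. In gel over PBS 5 rose and 5 fell without gel library 3, and 1 rose and 0 fell without gel library 4 or PBS library 3. With a block for the animal 4 rose and 2 fell. Between PBS and uninjured muscle 2 or 3 were called without PBS library 1 or 2 or any 1 uninjured library. Mdfi, which encodes an inhibitor that binds MyoD-family proteins, had 12.2, 14.0, 18.3 and 25.5 CPM in gel libraries, against 2.27, 0.544, 0.916 and 2.46 CPM in PBS libraries and 0.455, 1.56, 1.35 and 1.52 CPM in uninjured libraries. Every gel library lay above every other library, gel library 3 included. Mdfi rose by 3.49 ± 0.44 over PBS (edgeR adjusted p = 0.00109) and by 3.84 ± 0.46 over uninjured muscle (edgeR adjusted p = 0.000181). Id1, whose product sequesters the partners of MyoD, fell by 0.88 ± 0.22 in gel over uninjured (edgeR adjusted p = 0.00842) and by 1.01 ± 0.22 in PBS over uninjured muscle (edgeR adjusted p = 0.0121). The PBS over uninjured call of Id1 was lost without uninjured library 2 (edgeR adjusted p = 0.0501). Bhlhe40 rose by 0.96 ± 0.18 in PBS over uninjured muscle (edgeR adjusted p = 0.00639).

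Of 36 other adhesion and fusion genes tested, 8 rose and 3 fell in gel over PBS muscle, with a median of 0.16. Of all genes tested, 29.8% were called there, and nothing particular to this list is read from its count. Of the 8 that rose, 5 were at or below the highest PBS library in gel library 3. In the same comparison 15 of 16 macrophage and monocyte genes rose, with a median of 4.47, as did 4 of 10 fibro-adipogenic progenitor genes, and their part in the count was not tested. Tmem182, whose product is known to hold back myoblast fusion, had 17.5, 30.0, 42.9 and 19.4 CPM in gel libraries, against 77.0, 76.6, 61.4 and 53.5 CPM in PBS libraries and 35.0, 39.2, 33.0 and 31.3 CPM in uninjured libraries. The PBS libraries were above all others. Tmem182 fell by 1.29 ± 0.24 in gel over PBS (edgeR adjusted p = 0.00282) and rose by 0.95 ± 0.24 in PBS over uninjured muscle (edgeR adjusted p = 0.0295). The PBS over uninjured call was lost without any 1 of PBS libraries 1, 2 and 3 or of the 4 uninjured libraries, with edgeR adjusted p of 0.0513 to 0.0952. Gel over uninjured muscle was at -0.34 ± 0.24 (edgeR adjusted p = 0.316), and at -0.63 without gel library 3 (edgeR adjusted p = 0.00996).

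In the same list Nfatc2, a transcription factor gene of myotube growth, rose by 0.64 ± 0.14 over PBS (edgeR adjusted p = 0.00524) and by 0.98 ± 0.15 over uninjured muscle (edgeR adjusted p = 0.000440). Ncam1, an adhesion molecule gene of myoblasts and denervated fibres, rose by 1.28 ± 0.30 over PBS (edgeR adjusted p = 0.00843), with 33.2, 56.8, 37.1 and 60.4 CPM in gel libraries, against 30.7, 12.8, 11.7 and 22.1 CPM in PBS libraries. Stab2, which encodes a receptor for hyaluronan and phosphatidylserine, fell by 1.36 ± 0.21 over PBS (edgeR adjusted p = 0.00127). Cdon, which encodes a co-receptor that binds cadherins, was at 0.33 ± 0.18 (edgeR adjusted p = 0.169), and passed at 0.49 without gel library 1 (edgeR adjusted p = 0.0258). In PBS over uninjured muscle 1 rose and 2 fell, the 2 being Il4ra at -1.24 ± 0.25 and Arhgap26 at -0.88 ± 0.18 (edgeR adjusted p = 0.0100 and 0.0103). In gel over uninjured muscle 6 rose and 3 fell, and 12 rose and 4 fell without gel library 3.

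**Figure D5:**
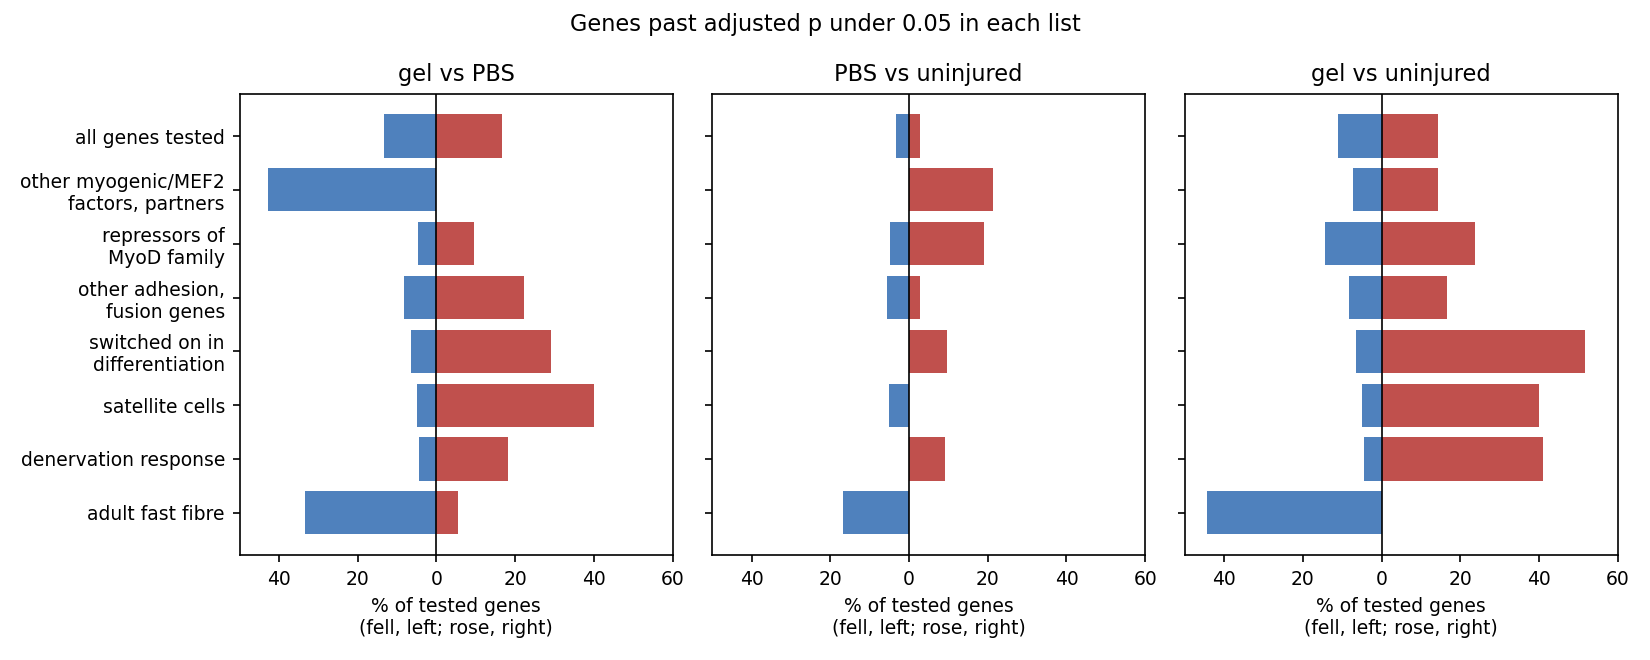
Percent of tested genes in each list that rose (right of 0) or fell (left of 0) at an edgeR adjusted p under 0.05 (x axis), for gel over PBS, PBS over uninjured and gel over uninjured muscle. All genes tested are at the top, with 16.6% higher and 13.2% lower in gel over PBS muscle, and genes switched on in differentiation reach 16 higher and 2 lower of 31 in gel over uninjured muscle.

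Of 31 muscle genes that are switched on during differentiation, 9 rose and 2 fell in gel over PBS, 3 rose and 0 fell in PBS over uninjured, and 16 rose and 2 fell in gel over uninjured muscle. Their medians were 0.20, 0.41 and 1.03. In PBS over uninjured muscle 1 rose without PBS library 1 or uninjured library 1, 2 or 3, and 5 rose without gel library 1 or 3. Igf2, a growth factor gene induced in differentiating myoblasts, had 308, 660, 357 and 671 CPM in gel libraries, against 70.8, 41.8, 40.2 and 92.2 CPM in PBS libraries and 38.7, 35.7, 38.3 and 54.1 CPM in uninjured libraries, a rise of 3.03 ± 0.34 over PBS (edgeR adjusted p = 0.000813). All gel libraries were above all others. The cell cycle inhibitor gene Cdkn1c rose by 1.62 ± 0.25 over PBS (edgeR adjusted p = 0.00172), and the embryonic myosin gene Myh3 by 2.48 ± 0.46 (edgeR adjusted p = 0.00409). In gel library 3 Cdkn1c was at 41.5 CPM, against 90.2 to 108 CPM in the other gel libraries, and Myh3 at 22.3 against 33.4 to 92.4 CPM. Of the 9 genes that rose over PBS, 0 were at or below the highest PBS library in gel library 3. The part of the macrophage and fibro-adipogenic sums in these values was not tested. Ckm, the creatine kinase gene of mature fibres, is in this list and fell by 0.92 ± 0.17 over PBS (edgeR adjusted p = 0.00229). Of 18 adult fast-fibre genes, 1 rose and 6 fell in gel over PBS muscle, and 1 rose and 10 fell without gel library 3.

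Of 20 satellite cell genes 8 rose and 1 fell in gel over PBS muscle, and 0 rose and 1 fell in PBS over uninjured muscle (2 fell without gel library 3). Of the 8 that rose over PBS, 2 were at or below the highest PBS library in gel library 3, where the macrophage and fibro-adipogenic sums were low, and the part of those sums in the count was not tested. Fgfr4, a growth factor receptor gene of myoblasts, rose by 1.41 ± 0.21 over PBS (edgeR adjusted p = 0.00124) and Megf10, a receptor gene of satellite cells, by 1.66 ± 0.34 (edgeR adjusted p = 0.00360). Asb5 fell by 0.59 ± 0.13 (edgeR adjusted p = 0.00549). Pax7, the defining factor of satellite cells, averaged 3.38 ± 1.07 CPM in gel, 3.33 ± 0.778 in PBS and 1.77 ± 0.902 in uninjured muscle (SD, n = 4). Its edgeR adjusted p was 0.969 for gel over PBS, 0.0767 for gel over uninjured and 0.157 for PBS over uninjured muscle. The gel over uninjured value of Pax7 passed without gel library 3 (edgeR adjusted p = 0.0216) or uninjured library 4 (0.0457).

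Of 22 genes known to rise on denervation, 4 rose and 1 fell in gel over PBS, 2 rose and 0 fell in PBS over uninjured, and 9 rose and 1 fell in gel over uninjured muscle. In gel over PBS 16.6% of all genes tested rose and 13.2% fell, and nothing particular to this list is read from its count there. The shares that rose were 2.79% in PBS over uninjured and 14.5% in gel over uninjured muscle. In gel over PBS 5 rose and 4 fell without gel library 3, and 9 rose and 2 fell without PBS library 4. With PBS library 1, 2 or 3 or uninjured library 1 or 4 left out, 1 rose in PBS over uninjured muscle. This list shares 7 genes with the differentiation list, among them the receptor subunit gene Chrng, which had 2.05, 5.44, 3.17 and 8.99 CPM in gel libraries, against 0.987, 0.544, 0.801 and 5.88 CPM in PBS libraries and 0.455, 0.840, 0.00 and 0.507 CPM in uninjured libraries. Chrng rose by 3.42 ± 0.90 over uninjured muscle (edgeR adjusted p = 0.0164). The part of any loss of innervation in the Myog values was not tested.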

How the data were processed

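The authors deposited raw counts of reads per gene symbol, 1 column per library, per the file headers; reads were aligned with STAR to build mm39, and edgeR is named as well, per the submitters' processing notes. The sources used here do not give the counting program, its strand setting or the annotation. In each library 74.8% to 87.2% of counts between 1 and 10 were even, and the cause was not tested, so limits from small counts may be too narrow. Within each group all pairs of libraries differed by more than sampling noise (chi-square per gene of at least 6.50 over genes with 20 or more reads), and 0 columns of values were left unused.

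Genes were kept with filterByExpr (13499 of 26264) and scaled by TMM normalization. In edgeR 4.0.16 (R 4.3.3) a robust quasi-likelihood model was fitted to all 12 libraries, with 1 coefficient per group and 9 residual degrees of freedom. All genes tested entered the Benjamini-Hochberg adjustment; genes under an adjusted p of 0.05 are said to have risen or fallen. Each SE is |log2 fold change| over the root of the F statistic. Log2 CPM used a prior count of 2. Tests were tried on simulated counts first. No label says how the uninjured animals were kept or sampled, so p-values measure the spread between these libraries. The fit takes the gel and PBS legs of 1 animal as independent, and the groups share 1 estimate of spread per gene. Between libraries of a group, the chi-square per gene was 26.5 to 119 in gel, 15.6 to 33.2 in PBS and 6.50 to 12.6 in uninjured muscle.

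Gel and PBS libraries of the same number are read as legs of 1 animal, from the deposited names and the labels' protocol; the deviations of same-numbered libraries from their group means correlated at 0.14, -0.06, 0.31 and 0.08. Alternatives were another scaling, other filters, DESeq2 1.42.0, limma voom 3.58.1, the 2 groups alone, the animal as a block, leaving out each library and, chosen after seeing the data, halved counts.

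The 7 genes and the gene lists were chosen with earlier results of these data known. Named genes outside the 7 are some of those given by a rule: up to 4 genes with the smallest p per list and comparison, a fixed set, and the 3 genes most correlated with each of the 7, of which 1 is not reported here.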

Additional observations from a re-analysis of the deposited data

Results flagged for a closer look

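PBS library 4 lay far from the other PBS libraries for Myod1, at 46.1 CPM where the others were at 23.6 to 26.0 CPM, and for Myog, at 18.7 CPM where they were at 5.38 to 6.91 CPM. These were 2 of 24 groups of 4 libraries examined for a single distant library, and chance gives about 1 in 20. Genes outside the 7 were not examined in this way. PBS library 4 was also the highest PBS library for many of the denervation genes. Gadd45a was at 48.0 CPM there, where the others were at 10.2 to 15.7 CPM. Musk was at 5.76 CPM (others 1.66 to 1.85) and Ampd3 at 40.6 CPM (13.7 to 15.7). Rrad was at 26.4 CPM (2.07 to 6.52) and Chrng at 5.88 CPM (0.544 to 0.987). Runx1 was at 18.5 CPM there, where the others were at 1.31 to 4.64 CPM. Mustn1, at 252 CPM, Fbxo30, at 7.38 CPM, and Abra, at 96.6 CPM, lay among the other PBS libraries. The part of this in the Myog values was not tested. Without PBS library 4 Myog was at 2.33 on the log2 scale in gel over PBS (edgeR adjusted p = 0.00221) and at 0.77 in PBS over uninjured muscle (edgeR adjusted p = 0.192). Myod1 was at 0.71 and -0.51 without it (edgeR adjusted p = 0.118 and 0.388).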

How the results depend on the processing

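Over the 7 genes in 3 comparisons, 386 values under an alternative kept direction and side of the threshold, 13 lost the call, 13 gained it and 5 changed sign. Mymx has no value under the filter of 1 CPM in 4 libraries, which removed it. All sign changes came without 1 library in values near 0: Myf6 ranged from -0.37 to 0.02 in gel over PBS and from -0.41 to 0.01 in PBS over uninjured, and Mef2c from -0.01 to 0.07 in PBS over uninjured muscle. Outside the 7, Pax7 ranged from -0.16 to 0.19 in gel over PBS, with -0.01 with the animal as a block, and Myf5 from -0.12 to 0.19 in PBS over uninjured muscle.

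In PBS over uninjured muscle the count of the 7 genes called, 1 in the fit reported, was 0 with no filter (2 at unadjusted p under 0.05), 0 with limma voom (1 at unadjusted p under 0.05), 2 with DESeq2, 2 with the replicate block and 0 to 1 without 1 library. The lone call was Mymk, and the cause of its loss was not tested. The count ranged from 2 to 4 in gel over PBS and from 2 to 5 in gel over uninjured muscle without 1 library. Of all genes, 4022 were called in gel over PBS, 2591 with the 2 groups alone, and 2457 to 5708 when 1 library was left out, lowest for gel library 4. In PBS over uninjured muscle 833 were called, 1415 with DESeq2, 2330 with the 2 groups alone, 2501 with the replicate block and 388 (without uninjured library 4) to 1703 (without gel library 3). It was also moved by over 1.5 times without PBS library 1 (455) or 2 (442) or uninjured library 2 (445) or 3 (412). In gel over uninjured muscle 3449 were called, and 2275 (without gel library 4) to 5090 without 1 library. The uninjured libraries share only a number with the others, so that block has no animal behind it. With the animal as a block, gel over PBS gave 2 of the 7 genes, Myog and Mymk, and 3009 of all genes.

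The Myog share differed by 12.3 to 17.9, 3.41 to 5.05 and 16.7 to 22.2 percentage points without 1 library in gel over PBS, PBS over uninjured and gel over uninjured muscle. The adjusted exact permutation p was 0.0571 where a PBS library was left out of gel over PBS or an uninjured library out of its comparisons. Over same-numbered pairs the differences of 14.6, 4.34 and 19 had a p of 0.125, the smallest possible.

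List counts moved by over 1.5 times under some alternatives. In gel over PBS the number called ran from 3 to 9 for partner factors (6 reported), 1 to 10 for repressors (3), 4 to 11 for denervation genes (5) and 5 to 11 for fast-fibre genes (7). In PBS over uninjured it ran from 2 to 5 for partner factors (3), 2 to 7 for repressors (5), 2 to 6 for adhesion and fusion genes (3), 1 to 7 for differentiation genes (3), 1 to 4 for satellite cell genes (1), 1 to 4 for denervation genes (2) and 0 to 8 for fast-fibre genes (3). In gel over uninjured muscle it ran from 2 to 9 for partner factors (3), 6 to 16 for adhesion and fusion genes (9), 4 to 12 for satellite cell genes (9) and 5 to 14 for fast-fibre genes (8).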
